A study of Mus musculus with 8 samples.

Results

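A set of 10 genes that handle iron and haem was described in resident microglia and invading macrophages of the mouse brain after stroke: Hmox1, Blvra, Blvrb, Fth1, Ftl1, Tfrc, Trf, Hp, Cp and Hfe. Members were taken by name, as every probe whose gene name on the array is one of these 10 symbols. This gave 10 of 34821 gene names and 17 of 55681 gene probes on the array, and 16 of them were bright enough to be tested, as were 29320 probes in all.

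All cells came from C57BL/6 bone marrow chimeric mice, in which the blood-forming cells had been replaced, with 30 min of middle cerebral artery occlusion (MCAo, which blocks a main brain artery) followed by 7 d of reperfusion and no further treatment. GFP+ cells, labelled resident microglia, and RFP+ cells, labelled invading macrophages, were sorted from the ischaemic brain of 4 animals, A to D, and each animal gave 1 array of either group (replicates 1 to 4). There was no uninjured brain among these arrays, so every difference below is between the cell groups 7 d after the injury. What drives either fluorescent protein is not given in the sources used here.

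Haem oxygenase 1, the product of Hmox1, opens the haem ring and releases iron, carbon monoxide and biliverdin, which the biliverdin reductases turn into bilirubin. The iron is stored in ferritin, a shell built of heavy (Fth1) and light (Ftl1) chains, or leaves the cell. Cells take iron up when transferrin (Trf) binds its receptor (Tfrc), and macrophages and microglia are known as cells that clear haem and iron from dying and red blood cells.

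All values are signals on a log2 scale relative to the 75th percentile of the same array, so a value of 1 means double that level. Such values compare arrays for 1 probe and do not rank genes by abundance. P-values come from limma, two-sided, adjusted by Benjamini-Hochberg over all 29320 tested probes, and a probe was called at an adjusted p under 0.05. Differences are macrophages minus microglia. In sorted bulk samples a lower share of cells that express a gene and less RNA per cell cannot be told apart.

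One array stood apart before any of these genes is considered. Macrophage replicate 2, from animal B, correlated with the other macrophage arrays at 0.84 to 0.872 over the tested probes, against 0.931 to 0.952 among those 3 and 0.927 to 0.956 among the microglia arrays. Its summed signal over 12 endothelial markers was 1010 times the array's 75th percentile, against 27.9 to 177 on the other macrophage arrays and 7.05 to 32.9 in microglia, with all 12 above background there. Its summed signal over 9 erythroid markers was 201, against 3.26 to 7.50 and 0.139 to 1.50. The labels themselves held on every array: P2ry12, a microglial receptor, was at 6.77 to 7.56 in microglia and 3.25 to 4.44 in macrophages, and Ccr2, the monocyte chemokine receptor, ranged from 0.74 to 1.49 and from 3.16 to 3.70. The results are therefore given with and without macrophage replicate 2, and its part in each was not tested.

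None of the 16 tested probes was called over all 8 arrays (0 higher, 0 lower). Over the whole array 6.45% of tested probes were called, 2.34% higher in macrophages and 4.11% lower. With the animal as a block, again 0 of the 16 were called, against 3.71% of all probes. The smallest adjusted p was 0.109, and 4 of the 16 had an unadjusted p under 0.05. The fitted difference was higher in macrophages for 12 probes and lower for 4, with a median of 0.52 beside 0.0 over all tested probes. Without macrophage replicate 2, 4 probes were called higher and 0 lower (both Blvra probes, Ftl1 probe 1 and Tfrc probe 2), against a background of 14.0% (7.15% higher and 6.84% lower), and the median was 0.97 beside 0.06. The values of the 2 groups did not overlap for 4 of 16 probes over all arrays, where 16.7% of all tested probes were so separated, and for 11 without that replicate, against 31.1%. Within animals, 6 of the 16 probes had differences of 1 sign in 4 of 4 animals, as did 33.8% of all tested probes. Macrophage replicate 2 was the lowest of the 8 arrays for 9 of the 16 probes and the highest for 5, while over all tested probes these shares were 28.6% and 14.3%.

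**Figure D1:**
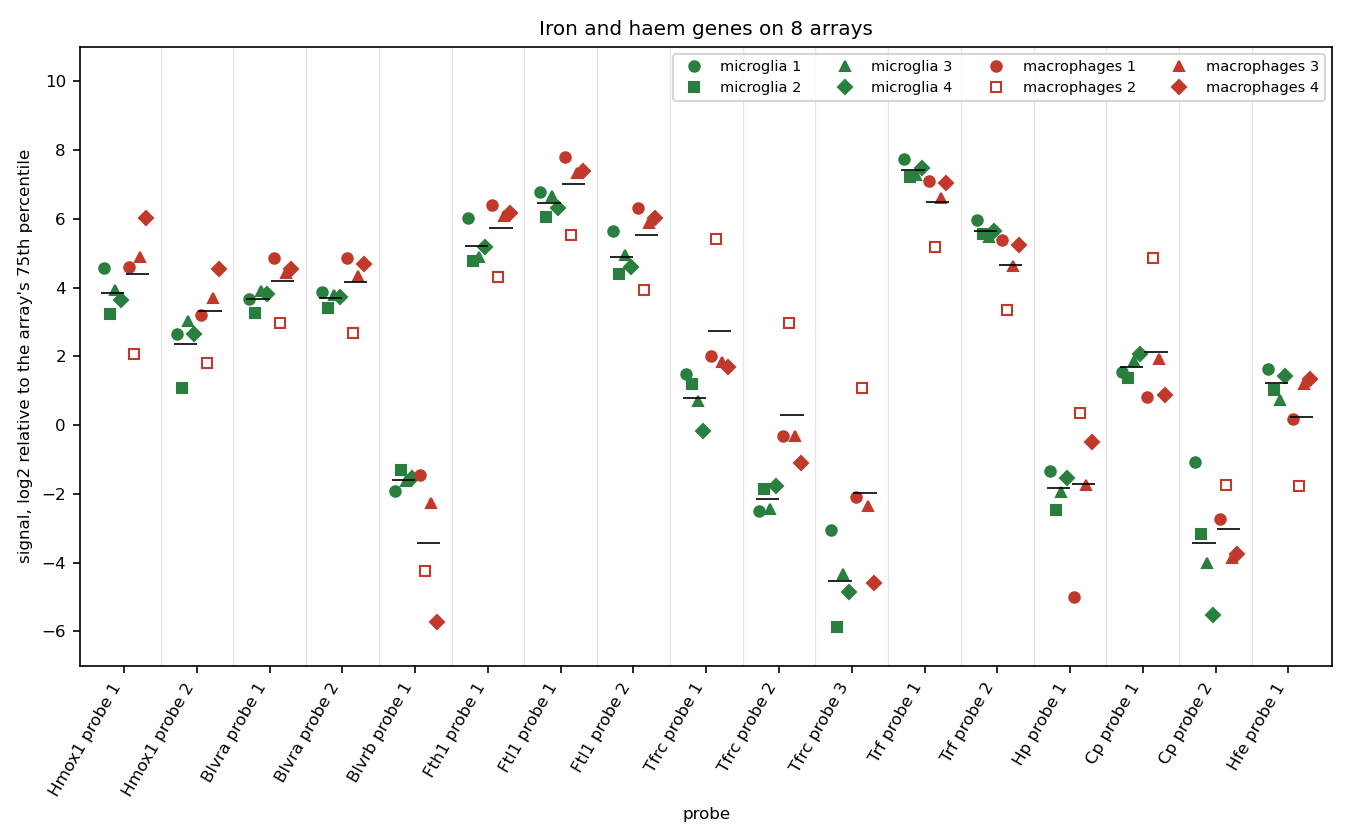
Signal of each of the 17 probes on the 8 arrays, on a log2 scale relative to the array's 75th percentile (y axis). Green symbols are microglia, red symbols macrophages, the shape gives the animal (circle A, square B, triangle C, diamond D), the open square is macrophage replicate 2 and black lines are group means. The open square lies below the other macrophages for Hmox1, Blvra, Fth1, Ftl1, Trf and Hfe and above them for Tfrc, Hp and Cp.

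The haem breakdown genes were led by Hmox1, which has 2 probes in mm9 (the build of the array files), at chr8:77624207-77624266 (probe 1) and chr8:77620797-77620856 (probe 2). The exon or untranslated part that a probe falls in was not looked up. The second probe is printed because it was higher in macrophages in all 4 animals.
Hmox1 probe 2: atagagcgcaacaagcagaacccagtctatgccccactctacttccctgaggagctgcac
On this probe the microglia arrays 1 to 4 were at 2.66, 1.08, 3.03 and 2.64, and the macrophage arrays at 3.20, 1.81, 3.70 and 4.53. The ranges overlapped, because macrophage replicate 2 lay below microglia replicates 1, 3 and 4, but within animals A to D the difference was 0.54, 0.73, 0.68 and 1.89. The fitted difference was 0.96 ± 0.63 (SE, n = 4 and 4; limma adjusted p = 0.394, and 0.167 under the animal block). Without macrophage replicate 2 it was 1.46 ± 0.53 and still not called (adjusted p = 0.106).

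Probe 1 of Hmox1 gave 4.56, 3.22, 3.94 and 3.63 in microglia and 4.61, 2.08, 4.88 and 6.02 in macrophages. Macrophage replicate 2 was the lowest array and macrophage replicate 4 the highest, so the macrophages enclosed the whole microglial range. The difference was 0.56 ± 0.76 (limma adjusted p = 0.696), and 1.33 ± 0.44 without macrophage replicate 2 (adjusted p = 0.0865).

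Blvra encodes biliverdin reductase A, the main adult enzyme that makes bilirubin, and its probes lie at chr2:126912587-126912646 (probe 1) and chr2:126922489-126922548 (probe 2). Probe 1 is shown because both probes of the gene gave the same picture.
Blvra probe 1: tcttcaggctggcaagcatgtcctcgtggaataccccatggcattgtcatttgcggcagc
Its signals were 3.66, 3.26, 3.91 and 3.81 in microglia and 4.87, 2.97, 4.42 and 4.55 in macrophages. Macrophage replicates 1, 3 and 4 lay above every microglia array and macrophage replicate 2 lay below all of them. The fitted difference was 0.54 ± 0.42 (limma adjusted p = 0.473), and without replicate 2 it was 0.95 ± 0.24, or 1.94-fold, which was called (adjusted p = 0.0412).

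Probe 2 of Blvra read 3.87, 3.42, 3.78 and 3.73 in microglia and 4.87, 2.69, 4.35 and 4.69 in macrophages. Again macrophage replicate 2 was the lowest of all arrays and the others were the highest. The difference was 0.45 ± 0.46 over all arrays (limma adjusted p = 0.595) and 0.94 ± 0.23 without that array (adjusted p = 0.0354). Leaving out animal B altogether, with both of its arrays, gave 0.82 for probe 1 and no call (adjusted p = 0.0874). Probe 1 differed by 0.12 among the 5 arrays of slide 1 and by 1.41 among the 3 of slide 2, and macrophage replicate 2 was on slide 1.

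Blvrb encodes biliverdin reductase B, an enzyme of red cells and liver that also reduces flavins, and its 1 probe (chr7:28250944-28251000) ran the other way. The microglia were at -1.91, -1.31, -1.63 and -1.55, close together and all well above background. The macrophages were at -1.46, -4.24, -2.28 and -5.74, and only 2 of the 4 arrays were well above background. The difference was -1.83 ± 0.83 (limma adjusted p = 0.228), and -1.56 without macrophage replicate 2 (adjusted p = 0.286). With normexp, a background correction that shrinks differences between dim signals, it was -0.62. The SD among macrophages was 1.93 against 0.25 in microglia, and macrophage replicate 1 lay within the microglial range.

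**Figure D2:**
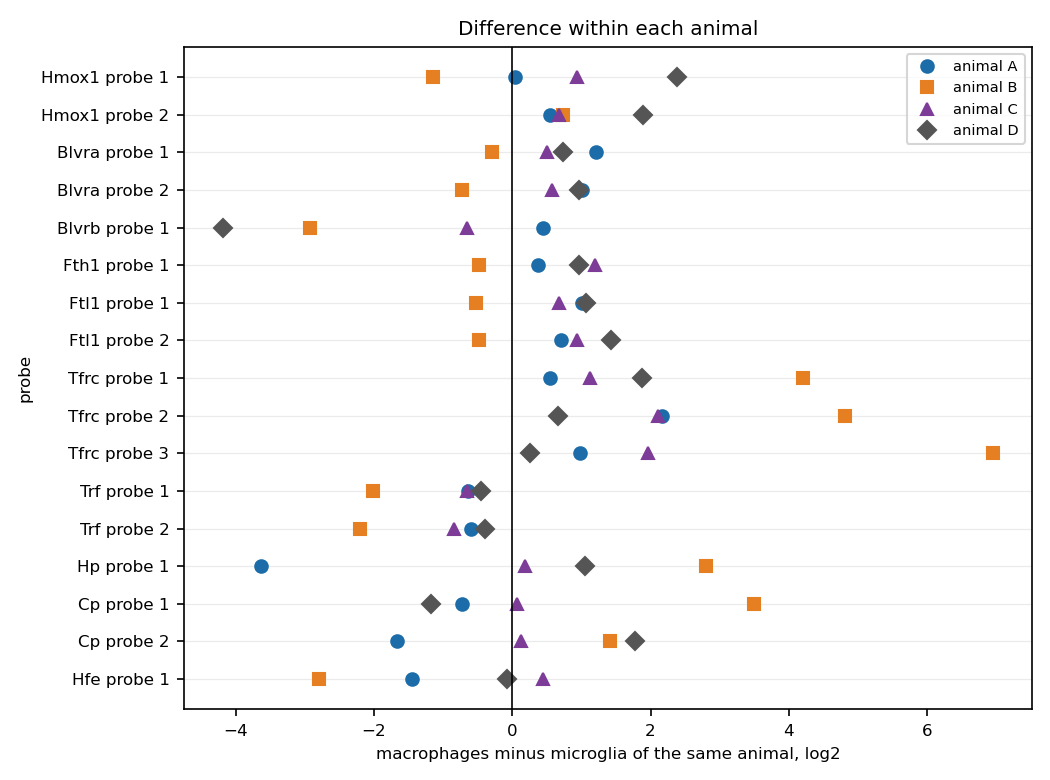
Difference between the macrophage and the microglia array of the same animal for each of the 17 probes (x axis, log2), with 1 symbol per animal and a line at 0. The 3 Tfrc probes and Hmox1 probe 2 are above 0 in 4 of 4 animals and both Trf probes below 0 in 4 of 4, while animal B (orange squares) lies on the far side of 0 from A, C and D for Blvra, Fth1 and Ftl1.

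Both ferritin chains were bright on every array. Fth1, whose product carries the site that oxidises iron for storage, has 1 probe at chr19:10059485-10059544. It read 6.02, 4.78, 4.88 and 5.19 in microglia and 6.39, 4.30, 6.07 and 6.16 in macrophages. Macrophage replicate 2 was the lowest array and macrophage replicates 1, 3 and 4 were above all microglia. The difference was 0.51 ± 0.50 (limma adjusted p = 0.577) and 0.99 ± 0.33 without macrophage replicate 2, which missed the threshold (adjusted p = 0.0892).

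The light chain gene Ftl1, which helps iron crystallise inside the shell, has a probe on the minus strand whose listed span, chr7:52714014-52714495, is 482 bases and so wider than the probe itself.
Ftl1 probe 1: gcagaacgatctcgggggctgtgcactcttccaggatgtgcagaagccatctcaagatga
It is shown because it passed the threshold once macrophage replicate 2 was left out. It read 6.79, 6.05, 6.66 and 6.32 in microglia and 7.79, 5.52, 7.34 and 7.38 in macrophages. As for Fth1, macrophage replicate 2 was lowest and the other macrophages were highest. The difference was 0.55 ± 0.48 (limma adjusted p = 0.531), and 1.05 ± 0.26, or 2.06-fold, without that array (adjusted p = 0.0382). Leaving out animal B whole gave 0.91 and no call (adjusted p = 0.0850), and the difference was 0.25 within slide 1 and 1.37 within slide 2.

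Ftl1 probe 2 is placed by the array files at chr17:6131686-6131745, on another chromosome than the first. It may match another copy, which was not checked, so its signal cannot be assigned to Ftl1 alone. It read 5.64, 4.41, 4.95 and 4.60 in microglia and 6.33, 3.92, 5.88 and 6.02 in macrophages. The order of the arrays was alike, with macrophage replicate 2 lowest. The difference was 0.64 ± 0.54 (limma adjusted p = 0.514) and 1.18 ± 0.33 without macrophage replicate 2 (adjusted p = 0.0537). Ferritin genes have many processed copies, so cross-hybridisation remains possible for the other ferritin probes too and was not tested.

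Tfrc, the transferrin receptor that brings iron into the cell, had the smallest adjusted p of the 10 genes, and its 3 probes were higher in macrophages in 4 of 4 animals. Probes 2 and 3 are printed because they sample different stretches of the transcript from the 10-spot probe 1 (chr16:32632255-32632314).
Tfrc probe 2: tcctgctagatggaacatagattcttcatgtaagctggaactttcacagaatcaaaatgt
Tfrc probe 3: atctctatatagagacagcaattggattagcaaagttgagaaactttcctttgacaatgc
Probe 2 lies at chr16:32620470-32620529, and probe 3 spans chr16:32624877-32625093, which is 217 bases. On probe 2 the microglia were at -2.49, -1.85, -2.44 and -1.77 and the macrophages at -0.32, 2.97, -0.33 and -1.11. Every macrophage array was above every microglia array, and macrophage replicate 2 stood far above the other 3. The difference was 2.44 ± 0.80 (limma adjusted p = 0.109, and 0.127 under the animal block). Without macrophage replicate 2 it was smaller, 1.55 ± 0.31 or 2.93-fold, and called (adjusted p = 0.0191). It was also called with both arrays of animal B left out (1.65, adjusted p = 0.0387), but not when the animals were then taken as blocks (adjusted p = 0.122), and it was 2.62 within slide 1 and 1.85 within slide 2. With normexp it was 1.73 over all arrays (adjusted p = 0.124).

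Tfrc probe 1, the mean of 10 spots on each array, read 1.48, 1.19, 0.70 and -0.17 in microglia and 2.02, 5.40, 1.83 and 1.70 in macrophages. The groups did not overlap, by a narrow margin outside macrophage replicate 2. The difference was 1.94 ± 0.82, or 3.83-fold (limma adjusted p = 0.198), and 1.05 ± 0.40 without macrophage replicate 2 (adjusted p = 0.119). Probe 3 was dim, with 1 of 4 microglia and 3 of 4 macrophage arrays well above background. It read -3.05, -5.87, -4.33 and -4.86 in microglia and -2.08, 1.09, -2.36 and -4.60 in macrophages, a difference of 2.54 ± 1.11 (adjusted p = 0.209) that became 1.52 ± 0.81 without macrophage replicate 2 (adjusted p = 0.240) and 1.06 with normexp. On all 3 probes macrophage replicate 2 was the highest array, as it was for the summed endothelial markers, and brain endothelium is known for a high level of this receptor. The difference on probe 2 remained above 0 without that array. Among the other macrophage arrays the summed endothelial signal was above that of every microglia array on 2 of 3. Within each of their animals it was higher in macrophages than in microglia, at 119 and 29.3 in A, 177 and 32.9 in C, and 27.9 and 9.46 in D. The part of endothelial RNA in the Tfrc result was not tested.

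**Figure D3:**
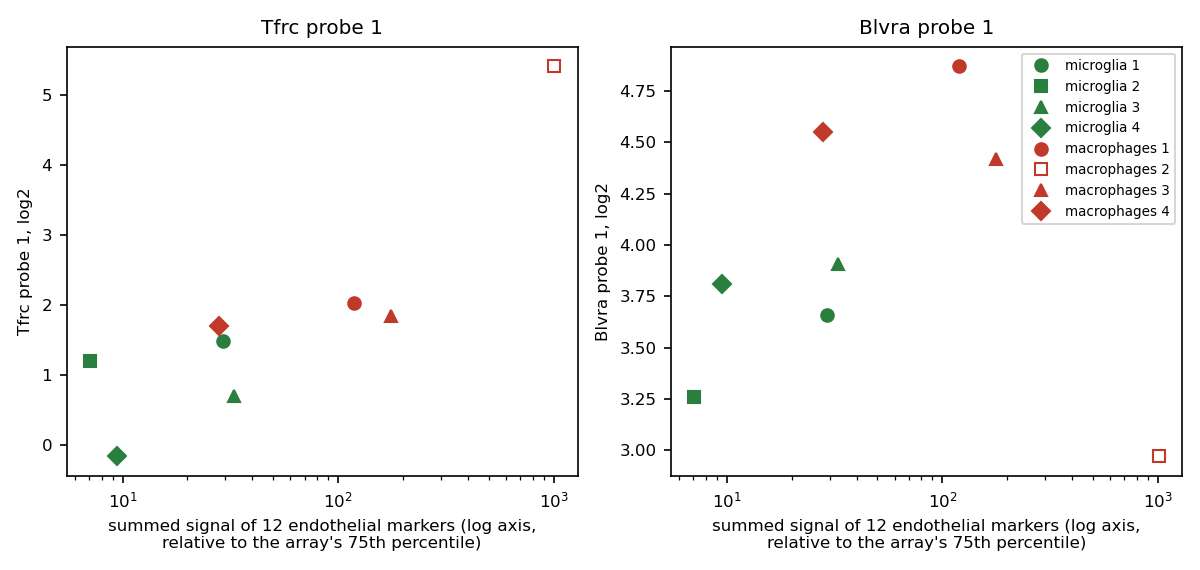
Signal of Tfrc probe 1 and of Blvra probe 1 (y axes, log2 relative to the 75th percentile) against the summed signal of 12 endothelial markers on the same array (x axis, log scale), with microglia in green, macrophages in red and macrophage replicate 2 as an open square. That array is the highest for the markers (1010), the highest for Tfrc (5.40) and the lowest for Blvra (2.97).

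Trf, the iron carrier that binds this receptor, went the other way and was lower in macrophages in 4 of 4 animals on both probes (chr9:103112826-103112885 for probe 1 and chr9:103111207-103111266 for probe 2).
Trf probe 1: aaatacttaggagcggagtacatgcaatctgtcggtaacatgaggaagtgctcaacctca
It is shown because it separated the groups on every array. Probe 1 read 7.74, 7.21, 7.28 and 7.49 in microglia and 7.10, 5.19, 6.62 and 7.04 in macrophages. The highest macrophage array lay just under the lowest microglia array. The difference was -0.94 ± 0.43 (limma adjusted p = 0.226), and without macrophage replicate 2, which was the lowest array, it was -0.51 ± 0.24 (adjusted p = 0.186).

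On Trf probe 2 the microglia were at 5.98, 5.56, 5.48 and 5.64 and the macrophages at 5.39, 3.36, 4.64 and 5.24. The groups did not overlap here either. The difference was -1.01 ± 0.44 (limma adjusted p = 0.209), -0.58 ± 0.26 without macrophage replicate 2 (adjusted p = 0.178), -1.15 within slide 1 and -0.38 within slide 2. Trf is also a well-known transcript of oligodendrocytes, whose 10 markers summed to 6.51 to 9.63 in microglia and 8.63 to 23.1 in macrophages. Among them Mag, which was too dim to be tested, was at -4.32 to -1.34 in microglia (3 of 4 arrays well above background) and -6.47 to -4.93 in macrophages (0 of 4). Their part in the Trf values was not tested.

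**Figure D4:**
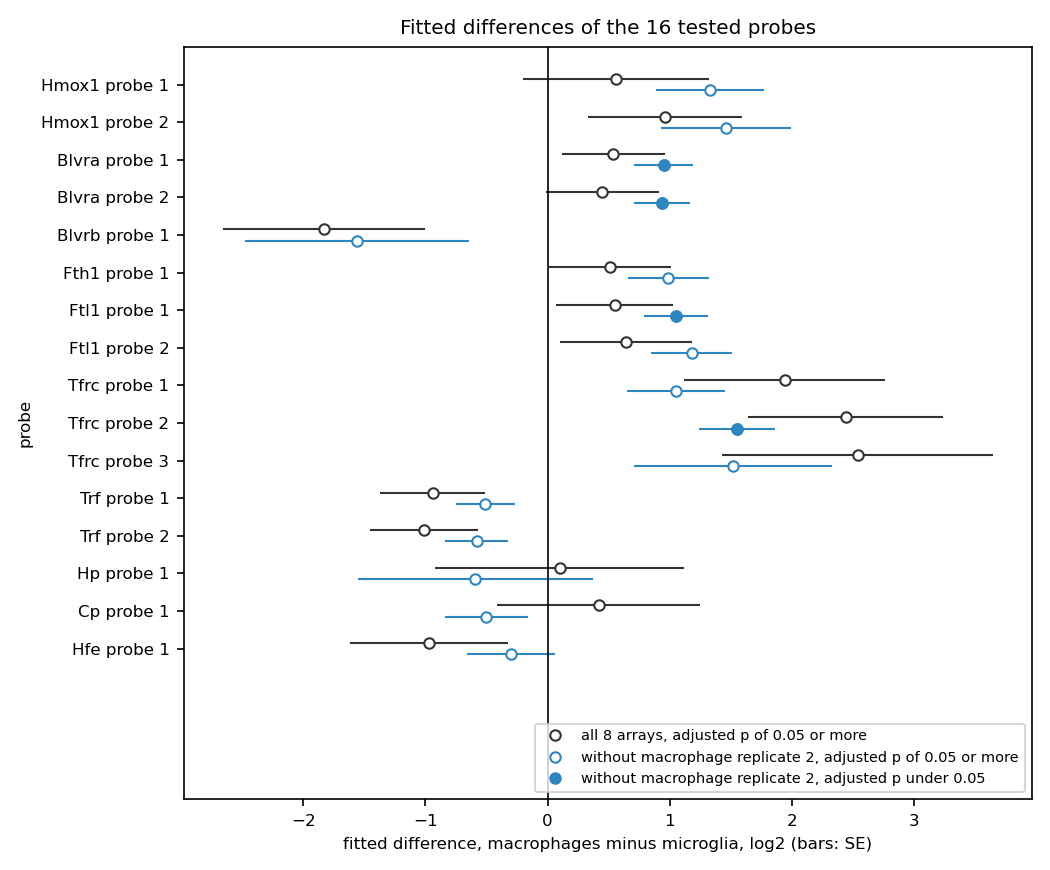
Fitted difference with its standard error for the 16 tested probes (x axis, macrophages minus microglia, log2), over all 8 arrays (black) and without macrophage replicate 2 (blue); filled points have an adjusted p under 0.05. No black point is filled, and 4 blue ones are, for Blvra, Ftl1 and Tfrc.

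The plasma proteins that bind haemoglobin or oxidise iron showed no common direction. Hp encodes haptoglobin, which captures free haemoglobin, and its probe (chr8:112099045-112099104) read -1.35, -2.46, -1.94 and -1.54 in microglia and -4.99, 0.35, -1.75 and -0.49 in macrophages. Macrophage replicate 1 was the lowest array and replicate 2 the highest, and 3 of 4 macrophage arrays were well above background. The difference was 0.10 ± 1.02 (limma adjusted p = 0.964), and it turned to -0.59 without macrophage replicate 2 (adjusted p = 0.713).

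Cp encodes ceruloplasmin, the copper enzyme that oxidises iron as it leaves cells, and probe 1 lies at chr3:19889071-19889130.
Cp probe 1: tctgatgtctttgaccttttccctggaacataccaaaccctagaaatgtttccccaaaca
It is shown because its direction rested on 1 array. It read 1.53, 1.36, 1.87 and 2.06 in microglia and 0.81, 4.86, 1.93 and 0.88 in macrophages. Macrophage replicate 2 was far above the rest, and macrophage replicates 1 and 4 were below every microglia array. The difference was 0.42 ± 0.83 (limma adjusted p = 0.796) and became -0.50 ± 0.34 without macrophage replicate 2 (adjusted p = 0.357). Cp probe 2 (chr3:19907511-19907570) was well above background on 2 of 4 microglia and 1 of 4 macrophage arrays and was not tested. It ranged from -5.53 to -1.07 in microglia and from -3.87 to -1.74 in macrophages.

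Hfe encodes a membrane protein that binds the transferrin receptor and takes part in iron sensing, and its probe lies at chr13:23795710-23795769. It read 1.64, 1.02, 0.74 and 1.43 in microglia and 0.19, -1.76, 1.19 and 1.35 in macrophages. Macrophage replicates 3 and 4 lay within the microglial range and replicates 1 and 2 below it. The difference was -0.97 ± 0.65 (limma adjusted p = 0.406), and -0.30 without macrophage replicate 2 (adjusted p = 0.609).

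Many haem and iron genes carry antioxidant or Maf recognition elements, the sites at which the activator NRF2 and the haem-sensing repressor BACH1 compete. The motif TGACNNNGC was searched on both strands in the RefSeq promoters of build GRCm38.p6, each of 300 bases (250 before to 50 after the start), which hold 7 of the 10 genes. These genes have 11 promoters there, of which 2 held the motif, 1 of Blvra and 1 of Hfe. Sites outside these 300 bases were not searched, so a gene without a match here may still hold the motif elsewhere. Over all 32851 promoters the share was 12.4%. Hmox1, Trf and Hp have no entry there. Both stretches are shown with the motif in capitals, 5′ to 3′ on the gene's strand, which is plus for Blvra (chr2:127070578-127070646, motif on the opposite strand) and minus for Hfe (chr13:23710883-23710951).
Blvra: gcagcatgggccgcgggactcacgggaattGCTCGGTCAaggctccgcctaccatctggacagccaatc
Hfe: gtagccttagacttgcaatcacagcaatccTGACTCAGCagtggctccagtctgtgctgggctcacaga
A match describes these letters only, and the fitted differences of these 2 genes had opposite signs, with neither called over all arrays.

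Other genes of iron and haem metabolism were given as 74 symbols in 7 lists, where Mfi2 and Meltf name the same gene, as do Hfe2 and Hjv. These stood for 72 genes, all on the array, and 55 were tested, each by its brightest tested probe. One was higher in macrophages and 6 were lower, with a median difference of 0.25, against 2.34% and 4.11% of all tested probes. With the animal as a block 1 and 3 were called, where 1.20% and 2.51% of all probes were, and without macrophage replicate 2 the counts were 6 and 8 with a median of 0.31, where 7.15% and 6.84% of all probes were called.

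Cd163 and Slc46a1 had the largest decreases among the called genes, and the other 9 of the 11 tested genes of haem transport and breakdown were not called (median of the list -0.16). Cd163, the scavenger receptor for haptoglobin bound to haemoglobin, gave signals of 0.40, 0.69, 0.33 and 1.22 on the microglia arrays and of -4.70, -5.99, -2.96 and -2.73 on the macrophage arrays. All microglia arrays were far above all macrophage arrays, of which 2 of 4 were well above background, and the difference was -4.75 ± 0.69 (limma adjusted p = 0.00511). With normexp it was -2.35 (adjusted p = 0.000195). Slc46a1, a transporter of haem and folate, read 1.28, 0.94, 0.09 and 1.39 on the microglia arrays and -1.96, -5.48, -2.23 and -3.46 in macrophages (3 of 4 well above background). Its difference was -4.20 ± 0.74 (adjusted p = 0.0125), and -2.39 with normexp (adjusted p = 0.00118). Under the animal block Cd163 and this Slc46a1 probe were called at adjusted p-values of 0.0224 and 0.0449. A second Slc46a1 probe fell by 3.59 (adjusted p = 0.0270) and lost the call under that block (adjusted p = 0.0623). With blocks for animal and slide Cd163 was still called (adjusted p = 0.0332) and the first Slc46a1 probe was not (0.0631).

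Cd163 is also 1 of 6 markers of border macrophages (those of the meninges and vessel walls), whose median difference was -1.69 and of which it alone was called. Lyve1 differed by -2.46, Cbr2 by -2.30 and Mrc1 by -1.08, and Stab1 and Pf4 by -0.35 and 0.31, none of them called. The summed signal of these 6 was 35.6 to 49.8 in microglia, 37.7 to 55.7 on the other macrophage arrays and 11.5 on macrophage replicate 2. The part of such cells in the Cd163 values was not tested.

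Among iron transporters, Slc25a37, which carries iron into mitochondria, read 2.63, 2.46, 2.19 and 2.34 in microglia and 0.57, -0.14, 0.16 and 0.95 in macrophages. The groups were apart by more than the range of either, and the difference was -2.02 ± 0.29 (limma adjusted p = 0.00442, and 0.0294 under the animal block). The call was lost with blocks for animal and slide (adjusted p = 0.0586). Another probe of the gene gave -0.79 and was not called. Slc22a17, a receptor for the iron carrier lipocalin 2, was lower by the fit, at -1.66 ± 0.35 (adjusted p = 0.0276), with 1 of 4 macrophage arrays well above background, and lost the call under the animal block (adjusted p = 0.0632) and with normexp, where it was -0.64 (adjusted p = 0.0729). It also lost it without any 1 of the microglia arrays or without macrophage replicate 3 (adjusted p = 0.0634 to 0.0853).

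Slc40a1, which encodes ferroportin, the known exporter of iron, showed the reverse dependence. The microglia were at 1.77, 1.92, 1.75 and 1.76, and the macrophages at -3.26, 2.62, -2.47 and -0.74. Macrophage replicate 2 was the highest array of all, and the other 3 macrophages were far below the microglia. Well above background were 4 of 4 microglia and 3 of 4 macrophage arrays. The difference was -2.76 ± 1.11 (limma adjusted p = 0.176) and -3.96 ± 0.54 without that replicate, which was called (adjusted p = 0.00433). With normexp over all arrays it was -1.81. Slc11a1, a metal transporter of the phagosome, was at 5.39 to 5.72 in microglia and 3.19 to 5.52 in macrophages and was not called (-0.82 ± 0.49, adjusted p = 0.354).

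Both remaining genes that were lower make haem or iron-sulphur clusters. Ppox, a late enzyme of haem synthesis, had a difference of -1.71 ± 0.35 (limma adjusted p = 0.0231), lost the call under the animal block (adjusted p = 0.0543) and lost it without microglia replicate 1, 2 or 3 or macrophage replicate 4 (0.0552 to 0.0769). Isca1, an assembly factor of iron-sulphur clusters, was at -1.21 ± 0.29 (adjusted p = 0.0428) and lost the call under the block (0.105) and without any single array other than macrophage replicate 2 (0.0526 to 0.109). Its second probe gave -0.29 and was not called, and for Iscu, a scaffold of the same process named after its values were seen, the brightest probe gave 0.08 and another -1.82, which was called (adjusted p = 0.0251).

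Nqo1, a quinone reductase of the NRF2 response, was the 1 gene of these lists called higher. It read -5.44, -5.58, -3.59 and -5.60 in microglia, with 1 of 4 arrays well above background, and -2.44, -2.71, -1.66 and -1.52 in macrophages, all well above it. The probe passed the filter on dim signals through the macrophages, so its size rests on microglial values at background. The difference was 2.97 ± 0.51 (limma adjusted p = 0.0114, and 0.0259 under the animal block), but 0.79 with normexp (adjusted p = 0.0418). The call was lost with blocks for animal and slide (adjusted p = 0.0631). It was one of 9 tested genes of the NRF2 and BACH1 kind, whose median difference was 0.67 and of which the other 8 were not called.

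Of the genes described whatever their value, Hmox2, the second haem oxygenase, was at 4.65 to 5.37 in microglia and 3.75 to 5.22 in macrophages (-0.16 ± 0.36, limma adjusted p = 0.822). Slc48a1, which lets haem out of the phagosome, differed by 0.80 ± 0.82 (adjusted p = 0.596). Lcn2, lipocalin 2, differed by 0.42 ± 0.76 (adjusted p = 0.776). Hpx, haemopexin, was well above background on 1 macrophage array and was not tested.

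**Figure D5:**
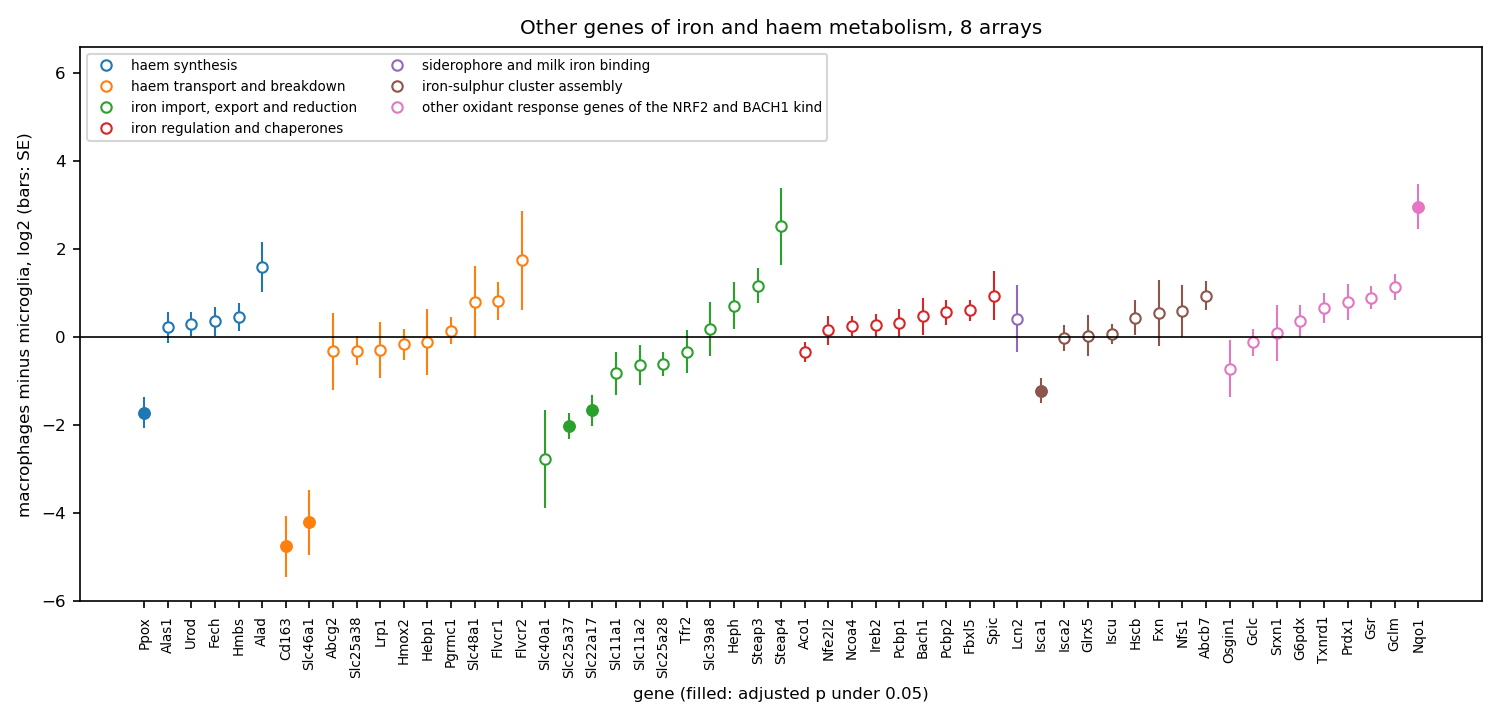
Difference between macrophages and microglia (y axis, log2, bars are standard errors) for the tested genes of 7 lists of iron and haem metabolism, coloured by list and ordered by size within a list; filled points have an adjusted p under 0.05 over all 8 arrays. Nqo1 is the 1 filled point above 0, and Cd163 and Slc46a1 are the lowest of the 6 below it.

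The tested probes of other genes most like each member over the 8 arrays, by Pearson's r and as a description only, shared the same groups and the same macrophage replicate 2. Those of Hmox1 were Akp3 (0.987) and Vac14 (0.979). Those of Blvra were Nipsnap3b (0.994) and Gpr35 (0.988). Ferritin probes ran with Lilrb4a (0.990) and Trim30a (0.989) for Fth1 and with Pfn1 (0.993) and Gapdh (0.990) for Ftl1. Tfrc ran with Gng11 (0.989) and Lrp8 (0.986). Trf ran with Fcrls (0.995), a microglial marker, and Il21r (0.994). Cp ran with Ccdc152 (0.986) and Pkig (0.978), and Hfe with Riox1 (0.996) and Ddx39b (0.985). The highest were lower for Blvrb, with Trp53bp2 (0.980) and Scand1 (0.979), and for Hp, with Tcf3 (0.960) and Cyp3a13 (0.956).

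Markers of other cells moved between the groups as well. Over 12 microglial markers 8 were called lower in macrophages, and over 11 monocyte markers 7 were called higher. Of the 12 endothelial markers 10 were tested, and 4 were called higher, or 7 without macrophage replicate 2. Of the called markers, Slco1a4, Ptprb, Erg and, among the 7, Slco1c1 were well above background on 0 of 4 microglia arrays. They passed the filter on dim signals through the macrophages, so they could not have been called lower there. Over all tested probes 4.11% were called lower and 2.34% higher, or 6.84% and 7.15% without that replicate. Summed signals in microglia and in macrophages other than replicate 2 were 25.7 to 48.0 and 84.9 to 123 for 11 neutrophil markers, and 15.3 to 19.8 and 43.0 to 85.2 for 7 cycling markers. Of the 9 tested neutrophil markers 0 were called over all arrays, and 1, Mmp8, was called higher without macrophage replicate 2. Mmp8 was the brightest of them on the other macrophage arrays, at 5.53 to 6.69, against 1.36 to 4.54 in microglia. The median difference of the neutrophil list was 0.73, or 0.42 without that replicate. Of the 7 cycling markers 1 was called higher, or 6 without it. Hba-a1, a haemoglobin chain, was at -6.19 to 0.38 in microglia (1 of 4 well above background), at 1.16 to 2.86 on the other macrophage arrays and at 7.64 on macrophage replicate 2. Whether any of these cells or their RNA contributed to the iron and haem genes was not tested.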

How the data were processed

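RNA of sorted cells was column purified, its mRNA was amplified as cDNA by a global PCR of an undisclosed protocol and labelled with Cy3, per the labels' protocols; amplification can change transcript proportions. Agilent Feature Extraction 10.7.3.1 read the one-colour arrays, per the file headers. The processed signal is a background-subtracted intensity that the authors deposited for each array, not normalized between arrays. The log2 table that the authors also deposited served as an alternative, and its normalization is not given in the sources used here.

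Control and outlier spots were left out. Log2 signals were averaged over the spots of 1 probe and set relative to the 75th percentile of their array. Testing a probe required that it had a value on all 8 arrays and lay well above background on at least 4, which 29320 of 55681 probes met. From 45.7% to 57.0% of probes were well above background per array and 0 were saturated, and the number of arrays limits the precision. The groups were compared with limma 3.58.1 (lmFit, eBayes; R 4.3.3), checked on simulated data, with tables and figures made in Python 3.11.15, pandas 2.3.3, numpy 2.4.6 and matplotlib 3.10.9.

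The labels give the animal of each array, so replicates are paired by animal. Correlations of the paired deviations were 0.042, 0.0981, 0.0694 and -0.0186 for animals A to D. The main test has no block. Arrays lay on 2 slides (2 microglia and 3 macrophage arrays, and 2 and 1).

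Members, lists and tests were chosen with earlier results of these data known. All member probes are described. Of the lists, each called gene (at most 4 per list) and Slc40a1, Slc11a1, Slc48a1, Cd163, Hmox2, Nqo1, Lcn2 and Hpx are named, and of all tested probes the 2 genes most like each member. Alternatives were another background correction, scaling, filter, block, slide, array weights, 1 probe per gene and leaving out each array. Coordinates are those of the array files, build mm9, and promoters are from RefSeq, build GRCm38.p6.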

Additional observations from a re-analysis of the deposited data

Results flagged for a closer look

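In 56 groups of 4 arrays (28 probes, both groups), 4 held an array far from the other 3 by Dixon's test, and chance alone flags about 1 group in 20. Of these 4, 2 were macrophage replicate 2. Fth1 was at 4.30 there and at 6.07 to 6.39 on the other macrophage arrays. Tfrc probe 1 was at 5.40 there and at 1.70 to 2.02 on the others. Slc40a1 was at 1.92 on microglia replicate 2 and at 1.75 to 1.77 on the other microglia, a small gap in a very narrow group. Nqo1 was at -3.59 on microglia replicate 3 and between -5.60 and -5.44 on the others, of which none was well above background.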

How the results depend on the processing

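Calls among the members were 0 under the alternatives for background correction, scaling, filter, block and slide, 1 with array weights and 1 with animal B left out without a block (Tfrc probe 2 in both), and 0 to 4 when 1 array was left out, where only leaving out macrophage replicate 2 gave any. The replicate block (animal) changed no call among the members. The settings that leave out animal B were added after the data were seen; with the block the fit equals that with animal and slide blocks, since only animal B spans the slides. Over all probes the 1892 calls of the unblocked test (36.3% higher) became 1088 with the replicate block, 835 with animal and slide blocks and with animal B left out under the block, 204 in slide 1 alone, 90 in slide 2 alone, 4962 with array weights, and 981 to 4103 without 1 array, the most without macrophage replicate 2. Centring on the median, which moved the median difference of all probes by 0.21, gave 53.2% higher, and a percentile over probes detected on all arrays, which moved it by -0.16, gave 25.4%. Calls in the pathway lists, 7 without a block, were 4 with the filter on all 8 arrays (44 genes, with Cd163, Slc46a1, Slc22a17 and Nqo1 no longer tested), 4 with the replicate block, 1 (Cd163) with animal and slide blocks and with animal B left out under the block, 0 in slide 1 alone and in slide 2 alone, 15 with array weights, and 4 to 14 without 1 array.

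Signs turned for some differences that were not called over all arrays. Hmox2 turned to 0.04 with median centring, 0.08 with both blocks and with animal B left out, 0.21 in slide 2, 0.13 with array weights and 0.16 without macrophage replicate 2. Hp turned to -0.06 with the percentile over detected probes, -0.39 with the slide block, -0.80 with both blocks and with animal B left out, -3.08 in slide 2 and -0.32 with array weights, and ranged from -0.59 to 1.19 without 1 array (-0.11 without microglia replicate 2, -0.31 without macrophage replicate 4). Cp probe 1 turned to -0.61 with both blocks and with animal B left out, -0.64 in slide 2, -0.18 with array weights and ranged from -0.50 (without macrophage replicate 2) to 0.85 without 1 array. Lcn2 turned to 0.00 with both blocks and with animal B left out, -1.45 in slide 2, and ranged from -0.19 (without macrophage replicate 2) to 1.04 without 1 array. In slide 2 Blvrb gave 0.15 and Slc11a1 0.02. The cause was not tested. With 3 arrays in slide 2 and 5 in slide 1, those values rest on few arrays. Signals near background limit Blvrb, Tfrc probe 3, Cp probe 2, Cd163, Slc46a1, Slc22a17 and Nqo1, whose differences shrank with normexp where they were tested. They also limit Hp, Slc40a1 and Slc48a1, each with 3 of 4 macrophage arrays well above background. With normexp Slc40a1 shrank from -2.76 to -1.81 and Slc48a1 from 0.80 to 0.46, while Hp went from 0.10 to 0.46.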
